A study of Mus musculus with 30 samples.

Results

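The libraries described here test what happened to chemically reprogrammed mouse cells when the small molecule called PD in the labels was taken out of the medium for the last days before collection. The -PD group (2 libraries) and the CT group (2 libraries) were chosen by their sample titles, and they make up 4 of the 30 RNA-seq libraries of the series, which hold 2 libraries for each of 15 groups. Both groups started as OG2 mouse embryonic fibroblasts (MEFs, connective tissue cells grown from embryos; genotype 129XOG2 in the labels) at passages 1 to 3, and were kept in a chemical reprogramming medium, with no added reprogramming factor named in their protocol. In -PD the molecule was left out from day 8 to day 12, and all libraries of the experiment were collected on day 12. The labels give no expansion of CT. It is treated here as the full medium, because it is the only title of the experiment without a minus sign. Another 6 libraries of the same table, -CHIR, -VC and -WS, had a different molecule left out over the same days and serve here as a comparison that uses no CT library. VC and WS are not expanded in the labels. The removed PD is not spelled out either: PD0325901 is named only for the medium of the induced pluripotent stem cells (iPSCs), at 0.2 µM, together with 3 µM CHIR99021. Separate cultures are not stated for the replicates, and the p-values therefore measure only the spread between these libraries, which may be technical.

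PD0325901 is an inhibitor of MEK, the kinase that activates ERK at the end of the RAS, RAF, MEK and ERK chain downstream of growth factor receptors. Active ERK turns on immediate-early genes such as Fos and Egr1, then cyclin D1, and also its own brakes: the Dusp phosphatases, which inactivate ERK, and the Sprouty and Spred proteins, which act on the chain above it. MEK inhibition and GSK3 inhibition by CHIR99021, which stabilises β-catenin and so switches on Wnt target genes, are the standard pair of inhibitors that hold mouse pluripotent cells in the naive state.

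Values are FPKM (fragment counts divided by transcript length and by library size), and changes are differences of the mean log2(FPKM + 1), so they understate the change of genes with low FPKM. A gene was tested where FPKM was at least 1 in 2 or more of the 10 libraries of the removal experiment, which left 13290 genes of 55401. A gene was called, and is said to have risen or fallen, at an adjusted p under 0.05 (limma, Benjamini-Hochberg over all genes tested) with a change of at least 2-fold. All adjusted p-values below are limma's. Depth, read from the smallest steps in which FPKM values rise, was 35100000 to 39100000 steps per library. The steps were searched only within a set range of depths, so these values could not fall outside it. The CT libraries were the least alike of any group: 141 genes differed by over 2-fold between them, against 44 between the -PD libraries and 31 to 35 in the other groups. The share of FPKM in the 13 mitochondrial-encoded protein genes was 2.03% in CT replicate 2, against 6.52% in CT replicate 1 and 7.09% and 8.12% in -PD. Counts are therefore also given against each CT library alone. With 2 libraries against 2, an exact permutation test of a single gene cannot go below a two-sided p of 0.333, so the tests rest on the spread shared across genes and groups.

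The labelled cell type, a reprogramming intermediate, was checked against markers. All 9 fibroblast markers were expressed, with a summed level of 21142 to 27696 FPKM in CT and 13925 to 14414 in -PD, and 1 of the 9, Lum, fell. Of 7 pluripotency markers, Nanog and Tdh stayed under 1 FPKM in all 10 libraries, while the sum was 137 to 153 FPKM in CT and 146 to 160 in -PD. The 5 extra-embryonic endoderm markers summed to 66.0 to 81.4 FPKM in CT and 61.3 to 75.4 in -PD. Endothelial markers summed to 6.09 to 7.59 FPKM in CT and 2.97 to 3.27 in -PD, with Pecam1 under 1 FPKM in all libraries. The 2 tested markers split: Tek fell, while Cdh5 had a positive log2 change of 0.45 that did not pass. Neural markers summed to 19.2 to 23.2 FPKM in CT and 10.8 to 12.14 in -PD. Epithelial markers were higher in -PD, at 118 to 129 FPKM against 94.1 to 107.7 in CT. Keratinocyte markers were too, at 1.92 to 1.93 against 0.877 to 1.14, with Krt5 and Trp63 under 1 FPKM in all libraries. Their sum was 2.17 to 2.63 in -CHIR, 1.08 to 1.22 in -VC and 1.70 to 1.74 in -WS. The -WS libraries lay near -PD, with endothelial, neural and epithelial sums of 2.33 to 2.75, 10.6 to 11.99 and 118 to 124. In -CHIR these were 22.4 to 23.4, 30.5 to 34.9 and 113 to 115, and in -VC 7.39 to 7.67, 25.6 to 27.4 and 84.3 to 85.1. Fibroblast sums were 18105 to 18922 in -CHIR, 10771 to 10957 in -VC and 18226 to 18426 in -WS. Of the macrophage markers, 4 of 5 stayed under 1 FPKM. In these bulk libraries fewer cells of a type and less RNA per cell cannot be told apart, and the part of the fibroblast, endothelial, neural, epithelial and keratinocyte sums in the results below was not tested.

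After removal of PD 105 genes rose (0.79% of those tested) and 64 fell (0.482%), 1.27% together. The counts of list members called against CT below stand beside these shares. Among called genes with a mean of at least 5 FPKM in the higher group, predicted gene models aside, the largest rises were those of Pla2g2a, Nkd2, Igfbp1, Apcdd1 and Hsd11b1, and the largest falls those of Ccn3, Col14a1, Cd34, Pi16 and Tnxb. Of the 105, 13 met the filter of 1 FPKM through the -PD libraries alone and so had to differ from CT, which leaves 92, and none of the 64 met it through CT alone. All 105 and all 64 had libraries that did not overlap between the groups, as did 53.3% of all genes tested. The median change over all genes was 0.08 on the log2 scale, and before adjustment 3019 genes were higher and 1117 lower at a p under 0.05. Against CT replicate 1 alone, 81 genes were higher (0.611%) and 76 lower (0.573%), and against CT replicate 2 alone 292 were higher (2.2%) and 67 lower (0.506%). After each library was rescaled to the same total (TPM) 131 genes were higher (0.82%) and 162 lower (1.01%). The filter was then applied to TPM, so 15981 genes were tested, and a pseudocount of 1 weighs less beside TPM than beside FPKM. After each library was centred on its median 76 were higher and 80 lower. The balance between rises and falls thus depended on the CT library and on the scaling. Of the 105 genes that rose, 67 were called against each CT library on its own and 86 under TPM, and of the 64 that fell, 43 and 64. All 169 kept their sign against each CT library alone and under TPM. Shisa2, P4ha3 and Scd1 lost the call against CT replicate 1 alone, at 0.98, 0.96 and 1.00, just under 2-fold, as did Igfbp3 against CT replicate 2 alone, at 1.00.

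**Figure D1:**
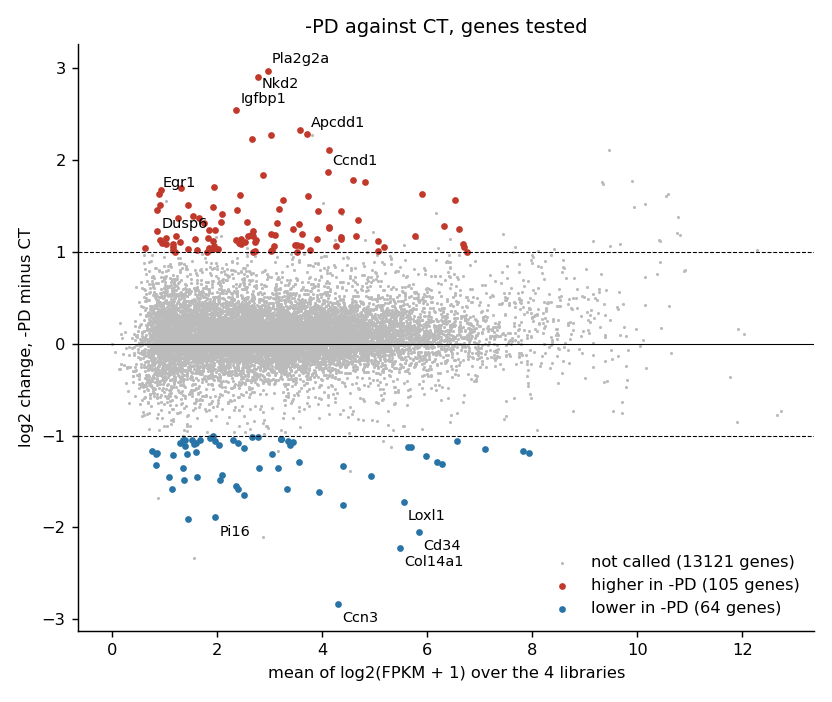
Each point is a gene tested: the horizontal axis is its mean log2(FPKM + 1) over the CT and -PD libraries, and the vertical axis is the log2 change, -PD minus CT. Red points are the 105 genes that rose and blue points the 64 that fell, grey points did not pass, dashed lines mark 2-fold, and the falls include genes of higher mean level such as Cd34 and Loxl1.

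**Figure D2:**
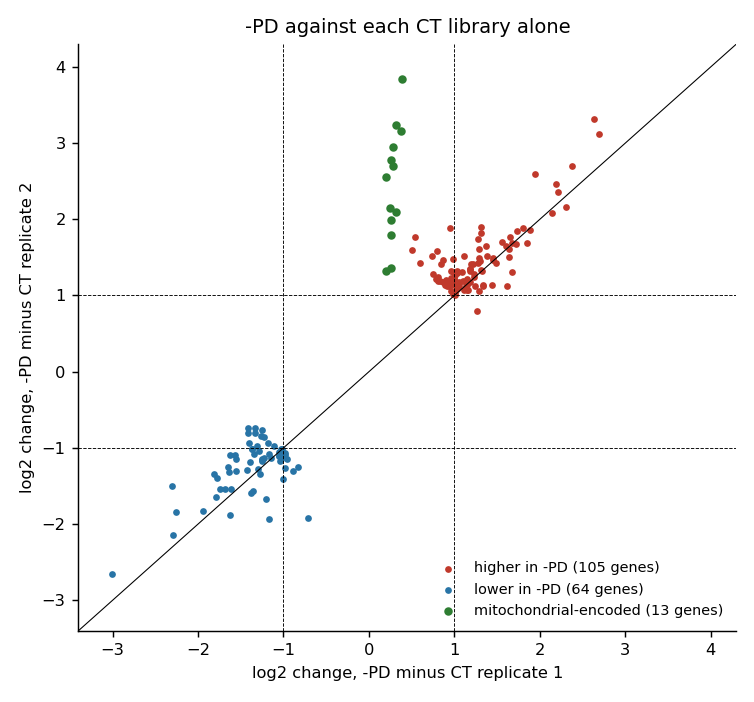
Log2 change of -PD against CT replicate 1 (horizontal) and against CT replicate 2 (vertical), for the 105 genes that rose, the 64 that fell and the 13 mitochondrial-encoded genes; the solid line marks equal changes and dashed lines mark 2-fold. Called genes keep the same sign on both axes, though some, such as Gapdh, lie off the line. Mitochondrial-encoded genes have a median change of 0.26 on the horizontal axis and 2.55 on the vertical axis.

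Genes of the ERK pathway were divided by role. The brakes came first: Spry1 and Spred2 rose, and Dusp6 was higher in -PD. Dusp6 encodes a phosphatase specific for ERK and lies at chr10:99263231-99267489 (GRCm38, plus strand). It measured 0.105 and 0.0951 FPKM in the CT libraries, and 1.80 and 2.27 FPKM in the -PD libraries. The 6 libraries with another molecule removed held 0.0588 to 0.540 FPKM, so both -PD libraries were higher than each of the other 8. The change was 1.46 ± 0.14 (log2, SE; n = 2 per group). Because Dusp6 met the filter of 1 FPKM through the -PD libraries alone, it had to differ, and its change is a description. Spry1, a Sprouty inhibitor of receptor tyrosine kinase signalling, measured 1.06 and 0.856 FPKM in CT and 4.01 and 4.12 in -PD, a change of 1.37 ± 0.12 (adjusted p from limma 0.000222). Spred2, which restrains RAF activation, measured 0.922 and 0.674 FPKM in CT and 3.44 and 3.96 in -PD, a change of 1.39 ± 0.12 (adjusted p from limma 0.000186). None of the 3 overlapped between the groups, which also held for 53.3% of all genes tested, and for Dusp6 the filter made it so.

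The other brakes changed by less. Of 16 genes on the feedback list 14 were tested. Of these, 3 were called higher (2 without Dusp6), beside 0.79% of all genes tested, none fell and 11 did not pass. The median change was 0.46 beside 0.08 over all genes. The 4 highest of those that did not pass were Sulf1 at 0.96, Spred1 at 0.83, Dusp4 at 0.80 and Spred3 at 0.47. Spry2, another defining member, was at 6.60 and 6.05 FPKM in CT and 8.92 and 8.34 in -PD (0.40, adjusted p from limma 0.0208). Il17rd was the lowest at -0.25. Against each CT library alone 4 were called higher. The counts over tested members are a description. The members left out by the filter were Dusp5 and Spry4. Spry4 measured 0.0757 and 0.0685 FPKM in CT and 0.681 and 0.665 in -PD. All 3 PEA3 factors, the ETS transcription factors Etv1, Etv4 and Etv5 that commonly mark ERK activity, were also under the filter. Etv5 measured 0.0517 and 0.0326 FPKM in CT and 0.586 and 0.744 in -PD, and Etv4 was listed at 0 in both CT libraries and at 0.241 and 1.04 FPKM in -PD. Every one of these levels is low, and none was tested.

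Among the immediate-early factors Fos and Ccn1 rose, and Egr1 was higher in -PD. Egr1, a zinc finger factor induced within minutes of ERK activation, measured 0.0454 and 0.0635 FPKM in CT and 2.18 and 2.34 in -PD. No library of the other 3 removal groups held more than 0.117 FPKM. The change was 1.63 ± 0.11 (log2, SE), a description, since Egr1 too met the filter only through -PD. Fos, the partner of Jun in the AP-1 factor, measured 1.37 and 1.34 FPKM in CT and 4.52 and 4.61 in -PD, a change of 1.24 ± 0.11 (adjusted p from limma 0.000164). Ccn1, a secreted matricellular protein, measured 71.3 and 67.6 FPKM in CT and 151 and 146 in -PD, a change of 1.09 that was 0.94 under TPM and then no longer 2-fold. The AP-1 genes did not move together. Jun was at 73.4 and 72.5 FPKM in CT and 50.1 and 49.5 in -PD (-0.54), and Jund at 212 and 264 against 148 and 127 (-0.78), neither reaching 2-fold. Myc overlapped between the groups, at 2.77 and 1.61 FPKM against 2.76 and 3.55. Of 25 members 20 were tested, 3 were called higher (2 without Egr1), beside 0.79% of all genes tested, and 17 did not pass. The median was 0.11, or 0.04 against CT replicate 1 alone, 0.16 against CT replicate 2 alone and -0.04 under TPM.

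Cyclin D1 was the ERK output gene with the largest change. Ccnd1, which drives entry into the cell cycle, measured 7.96 and 8.1 FPKM in CT and 31.1 and 32.9 in -PD. The -CHIR and -VC libraries lay at 6.57 to 8.35 FPKM and the -WS libraries at 17.2 and 19.2, so -PD was above all other libraries. The change was 1.87 ± 0.10 (log2, SE; adjusted p from limma 1.46e-05). Emp1, an epithelial membrane protein gene, measured 62.9 and 44.1 FPKM in CT and 157 and 159 in -PD, a change of 1.57 ± 0.13 (adjusted p from limma 0.000156). Ccnd1 is also a Wnt target and is counted in both lists. Of 30 further ERK output genes 25 were tested, these 2 rose, beside 0.79% of all genes tested, and 23 did not pass. The median was 0.18, or 0.20 against CT replicate 1 alone and 0.22 against CT replicate 2 alone. Tnc, a matrix glycoprotein, came near 2-fold at 0.97, from 73.4 and 64.7 FPKM in CT to 131 and 141 in -PD. Hmga2, a chromatin protein of proliferating cells, was at 4.07 and 3.48 FPKM in CT and 8.18 and 8.32 in -PD (0.96).

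The genes that carry the signal showed no called change. None of 21 tested members of the RAS to ERK chain passed, with changes from -0.38 (Ksr1) to 0.40 (Nf1) and a median of 0.13. Map2k1, which encodes MEK1, was at 24.9 and 24.3 FPKM in CT and 29.0 and 26.3 in -PD. None of 18 receptor tyrosine kinases and none of 12 FGF, EGF, PDGF and related ligands passed against CT, with medians of -0.07 and 0.12. Igf1, a ligand of the insulin-like growth factor receptor, stood at 16.4 and 12.4 FPKM in CT and 27.8 and 28.5 in -PD (0.93).

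**Figure D3:**
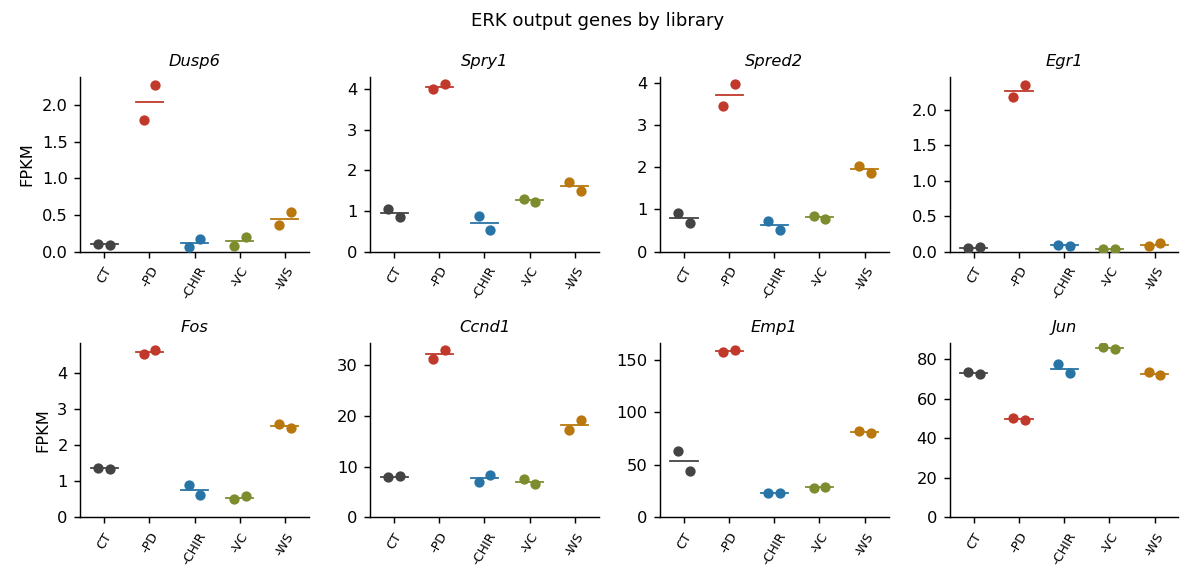
FPKM (vertical axis, from 0) of 8 ERK output genes in each of the 10 libraries of the removal experiment; points are libraries and lines are the means of 2. In Dusp6, Spry1, Spred2, Egr1, Fos, Ccnd1 and Emp1 both -PD libraries are the highest of the 10, while in Jun they are the lowest at 50.1 and 49.5 FPKM.

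Promoter sequences of members are shown to place these values beside the letters of their start regions. RefSeq windows of 300 bases (250 before and 50 after a start; build GRCm38.p6) were found for 33 of the 44 ERK feedback, PEA3 and immediate-early genes. Dusp6 is printed because it is the pathway's defining gene here, and Emp1 because it is an ERK output gene that rose and holds motifs of AP-1, the factor that contains Fos. Both are on the plus strand and end at the base before the start. For Dusp6 this is chr10:99262981-99263230, and for Emp1 chr6:135362708-135362930, from the end of an annotated upstream exon. Capitals mark the letters TGANTCA, searched on both strands.
Dusp6: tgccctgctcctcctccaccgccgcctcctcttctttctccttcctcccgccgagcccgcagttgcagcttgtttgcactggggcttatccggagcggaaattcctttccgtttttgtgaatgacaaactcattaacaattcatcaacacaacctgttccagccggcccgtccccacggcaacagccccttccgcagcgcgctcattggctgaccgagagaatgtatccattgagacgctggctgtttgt
Emp1: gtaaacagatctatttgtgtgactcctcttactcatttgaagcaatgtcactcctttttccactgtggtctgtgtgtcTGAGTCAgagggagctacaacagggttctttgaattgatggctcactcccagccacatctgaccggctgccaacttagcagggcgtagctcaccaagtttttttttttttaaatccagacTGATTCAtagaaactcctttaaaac
The Emp1 matches begin 145 and 25 bases before the start. The AP-1 letters were in the windows of 0 of the 33 ERK genes, of 5 of the 65 genes that rose and have a window, and of 5 of the 38 that fell, beside 8.97% of all 27025 genes with a window and 5.84% of the 9549 genes tested that have one. The ETS letters CCGGAAG were in 2 of the 33, Zfp36 and Srf, beside 9.93% of all and 20.6% of tested genes, and the CRE letters TGACGTCA in 3, Errfi1, Maff and Btg2, beside 2.03% and 3.58%. The CArG motif, bound by SRF, was in 4 of the 33, Dusp5, Egr2, Zfp36 and Srf, beside 1.81% and 1.55%. These matches are a description and were not tested.

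Wnt targets and feedback inhibitors made up the list with the most called members. Of 18 genes 16 were tested, 9 rose, beside 0.79% of all genes tested, none fell and 7 did not pass. The median change was 1.09 beside 0.08 over all genes. The 9 were Nkd2, Ccnd1, Notum, Nkd1, Sfrp1, Axin2, Tcf7, Sp5 and Bmp4. Against CT replicate 1 alone 8 were called (median 0.96) and against CT replicate 2 alone 10 (median 1.09). The list was chosen with earlier results of these data known, and its counts are a description.

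Nkd2 encodes a Naked cuticle protein that binds Dishevelled and dampens Wnt signalling (chr13:73818534-73847631, GRCm38, minus strand). It measured 1.92 and 1.17 FPKM in CT and 17.1 and 18.5 in -PD. The -CHIR libraries held 0.232 and 0.285 FPKM, the -VC libraries 2.90 and 3.41 and the -WS libraries 15.2 and 15.1, so -WS lay nearest to -PD. The change from CT was 2.90 ± 0.14 (log2, SE; adjusted p from limma 8.89e-06). Notum, a secreted enzyme that inactivates Wnt ligands, measured 13.4 and 15.1 FPKM in CT and 53.6 and 48.1 in -PD, a change of 1.77 ± 0.09 (adjusted p from limma 1.12e-05). The antisense transcript Notumos overlaps Notum, and because the sources used here do not give counting by strand, reads of both cannot be told apart. Axin2, a scaffold of the complex that degrades β-catenin and a general Wnt target, measured 15.9 and 15.3 FPKM in CT and 35.5 and 37.3 in -PD, a change of 1.17 ± 0.07 (adjusted p from limma 2.91e-05).

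Of the list's transcription factors 2 rose, from low levels. Sp5 measured 2.84 and 3.09 FPKM in CT and 8.35 and 6.83 in -PD, a change of 1.11, and Tcf7, the TCF1 gene, 4.51 and 2.69 against 9.03 and 8.70, a change of 1.13 that was 0.84 against CT replicate 1 alone. Lef1 did not pass, at 1.84 and 1.28 FPKM in CT and 2.98 and 2.67 in -PD (0.59). The secreted antagonist Sfrp1 rose from 65.3 and 59.3 FPKM to 148 and 152 (1.25), whereas its relative Sfrp2 was at 130 and 121 FPKM in CT and 85.1 and 84.4 in -PD (-0.56). Bmp4, a growth factor of the BMP branch, measured 6.94 and 6.53 FPKM in CT and 16.2 and 14.4 in -PD, a change of 1.07. The receptor Lgr5 did not pass against CT, at 2.96 and 2.62 FPKM against 6.04 and 6.48 (0.94). Outside the list, Apcdd1, an inhibitor of Wnt receptors, rose by 2.28 ± 0.08 from 5.24 and 4.61 FPKM to 28.7 and 27.0 (adjusted p from limma 2.49e-06). Wnt11, a Wnt ligand, went the other way, from 11.9 and 8.69 FPKM in CT to 4.07 and 2.80 in -PD, and fell by 1.35.

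The start region of Sp5 is printed because it alone among the 12 Wnt list members with a window holds the TCF/LEF letters ATCAAAG, searched on both strands and found in 4.29% of all genes with a window and 2.95% of those tested. The stretch is chr2:70474673-70474922 (GRCm38.p6, plus strand). Capitals mark the match on the other strand, which begins 104 bases before the start.
Sp5: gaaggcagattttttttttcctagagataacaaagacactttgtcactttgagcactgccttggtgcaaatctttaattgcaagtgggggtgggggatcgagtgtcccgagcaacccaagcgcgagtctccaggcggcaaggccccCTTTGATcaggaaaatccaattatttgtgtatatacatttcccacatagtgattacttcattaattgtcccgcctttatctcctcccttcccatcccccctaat
The same letters were in the windows of 3 of the 65 genes that rose.

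Other genes are named for the size of their rise. Pla2g2a, a secreted phospholipase gene that the annotation lists as a polymorphic pseudogene, measured 2.53 and 1.21 FPKM in CT and 23.6 and 18.6 in -PD, the largest rise at 2.98 ± 0.19 (log2, SE; adjusted p from limma 4.33e-05). The -WS libraries were higher still at 31.8 and 31.3 FPKM, and the -CHIR libraries held 0.264 and 0.266. Igfbp1, a binding protein of insulin-like growth factors, measured 1.39 and 0.906 FPKM in CT and 11.5 and 11.3 in -PD, a change of 2.54 ± 0.13. No other library passed 3.79 FPKM, so Igfbp1 was highest in -PD. Its relatives Igfbp2 and Igfbp3 also rose, by 1.29 and 1.00, while Igfbp6 fell by 1.29, from 113 and 112 FPKM to 51.4 and 40.2.

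Hsd11b1, which regenerates active glucocorticoid, measured 3.67 and 1.98 FPKM in CT and 16.7 and 17.4 in -PD (2.27), and the chemokine Cxcl14 measured 7.35 and 7.67 against 34.0 and 37.5 (2.11). Both were higher in -PD than in each of the other 8 libraries. Cxcl5, a neutrophil chemokine, rose by 1.44 from 9.31 and 7.24 FPKM to 24.1 and 24.0. The imprinted gene Mest rose from 35.1 and 31.5 FPKM to 102 and 108 (1.63). The remaining named rises were Cabp7 (2.23), Col8a1 (1.84), Tmem132c (1.79), Sostdc1 (1.70), Nefl (1.63) and Ms4a4d (1.61), of which Col8a1 encodes a short-chain collagen and Sostdc1 a BMP and Wnt antagonist. Inhba, the activin A subunit, rose by 1.14.

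The genes with the largest falls included several of the matrix. Ccn3, a matricellular protein also known as Nov, lies at chr15:54745702-54754039 (GRCm38, plus strand). It measured 58.7 and 45.8 FPKM in CT and 6.80 and 6.03 in -PD. The -CHIR libraries were the highest at 159 and 162 FPKM, and the -WS libraries, at 7.97 and 8.52, were close to -PD. The gene fell by 2.84 ± 0.11 (log2, SE; adjusted p from limma 2.86e-06). Col14a1, a collagen that associates with fibrils, measured 100.4 and 90.4 FPKM in CT and 19.0 and 20.3 in -PD, and fell by 2.22 ± 0.08 (adjusted p from limma 2.49e-06). Cd34, a sialomucin of stromal and endothelial progenitor cells, measured 134 and 101 FPKM in CT and 27.0 and 27.7 in -PD, and fell by 2.05 ± 0.11.

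Further matrix genes were among those called. Loxl1, which crosslinks elastin, measured 89.0 and 80.5 FPKM in CT and 25 and 24.9 in -PD, and fell by 1.72. Elastin itself, Eln, measured 41.8 and 58.2 FPKM in CT and 19.4 and 15.8 in -PD, and fell by 1.44, while fibrillin 1, Fbn1, was at 112 and 119 against 61.8 and 65.5 (-0.85) and did not pass. Tnxb, a tenascin, fell by 1.75 and Mgp, an inhibitor of matrix calcification, by 1.36. Pi16, a surface protein of a class of fibroblasts, measured 6.84 and 6.26 FPKM in CT and 1.18 and 0.907 in -PD, and fell by 1.89. Tek, the angiopoietin receptor, fell by 1.43, from 6.62 and 5.44 FPKM to 1.58 and 1.62. It is 1 of the 3 endothelial markers whose sum was lower in -PD, while Cdh5, another of the 3, had a change of 0.45. Enpp2, which makes lysophosphatidic acid, fell by 1.31 from 120 and 125 FPKM to 45.7 and 51.8. The remaining named falls were Spon2 (-1.65), Lrrn4cl (-1.61), Adgrd1 (-1.58), St8sia2 (-1.58) and Galnt16 (-1.48).

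**Figure D4:**
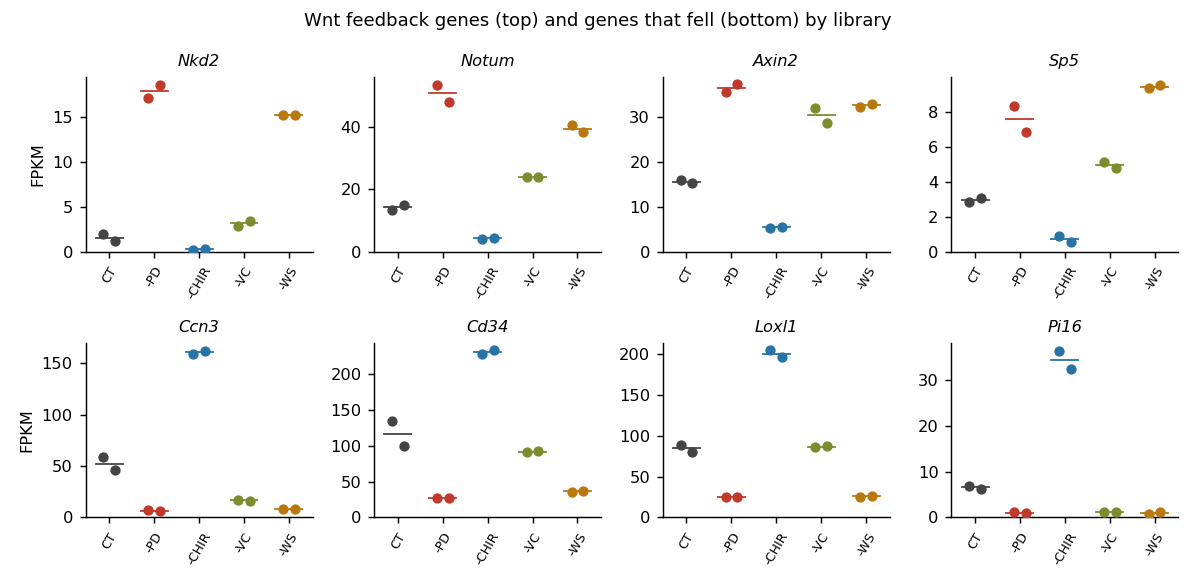
FPKM (vertical axis, from 0) in each of the 10 libraries for 4 Wnt genes that rose in -PD (top row) and 4 genes that fell (bottom row); points are libraries and lines are the means of 2. For all 8 genes CT lies between -PD and -CHIR, and for Ccn3, Loxl1 and Pi16 the -WS libraries lie close to -PD.

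The broader fibroblast programme was not uniformly lower. Of 30 fibroblast and mesenchyme genes, all tested, Loxl1 and Lum fell, none rose and 28 did not pass, with a median of -0.21. Against CT replicate 1 alone 2 were lower, and against CT replicate 2 alone 3 were lower and 1 higher. Lum, a proteoglycan of collagen fibrils, measured 227 and 180 FPKM in CT and 89.3 and 93.1 in -PD and fell by 1.14, or by 0.98 and not called against CT replicate 2 alone. Col1a1 was at 7106 and 10180 FPKM in CT and 5078 and 4876 in -PD (-0.77), so CT replicate 1 lay closer to -PD than to CT replicate 2. Zeb1, Twist1 and Snai1, transcription factors of mesenchymal cells, had changes of 0.43, 0.47 and 0.52, while Twist2, Prrx1, Snai2 and Zeb2 had -0.47, 0.07, 0.21 and 0.31. Fap had 0.89, and none of these passed. The 11 collagens outside that list split, with Col8a1 rising, Col14a1 falling and a median of -0.07. Mmp13, a collagenase, was the only one of 16 proteases and inhibitors called and fell by 1.02, from 8.88 and 8.79 FPKM to 3.82 and 3.88. All 14 contractile genes had positive changes, from 0.05 to 0.97, with a median of 0.38, but none passed. The share of all genes with a positive change is not given beside this count.

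Pluripotency genes showed few changes over the 4 days. Of 28 naive pluripotency genes 17 were tested, Esrrb rose, Klf2 fell and 15 did not pass, with a median of 0.13. Esrrb, an orphan nuclear receptor of the naive network, measured 2.78 and 2.72 FPKM in CT and 10.1 and 7.0 in -PD, a change of 1.33 ± 0.18 (adjusted p from limma 0.0018). Klf2, a Krüppel-like factor of the same network, measured 13.7 and 15.2 FPKM in CT and 6.43 and 5.95 in -PD, and fell by 1.10 ± 0.08 (adjusted p from limma 7.9e-05). The 2 therefore moved in opposite directions, with no overlap between groups for either, as for 53.3% of all genes tested. Pou5f1, the Oct4 gene, was expressed at 55.4 and 52.1 FPKM in CT and 60.6 and 55.8 in -PD (0.11, adjusted p from limma 0.354), and Sox2 at 1.17 and 1.08 against 0.935 and 0.792. Klf4 was at 87.3 and 57.4 FPKM in CT and 57.6 and 58.2 in -PD, so its change of -0.29 was 0.01 against CT replicate 2 alone. None of the 4 reprogramming factors passed. Dppa5a, at 75 and 93.9 FPKM against 85.7 and 79.5, overlapped between groups.

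Other lineage lists held no called gene. None of 23 epithelial genes passed (median 0.22), with Cdh1 at 19.4 and 16.6 FPKM in CT and 22.9 and 23.6 in -PD, and Cldn3 the highest at 0.67. None of 16 extra-embryonic endoderm genes passed (median -0.16), with Gata4 at 22.1 and 17.5 FPKM against 18.2 and 16.3. None of 7 DNA methylation genes passed (median 0.02), and Uhrf1, which guides maintenance methylation, was the highest at 0.80. None of 21 interferon response genes passed (median -0.12), with Ifit1, Irf7 and Isg15 at -0.56, -0.54 and -0.50.

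Called members of growth and metabolism lists stand beside 0.79% of all genes tested called higher and 0.482% called lower. All 25 proliferation genes had positive changes, from 0.02 (Rrm2) to 0.84 (Cdk1), with a median of 0.44, and none passed. Cdk1 was at 1.93 and 1.55 FPKM in CT and 3.17 and 4.72 in -PD, and Mki67 at 1.25 and 0.850 against 1.81 and 2.25, so the levels were low in both groups. All 26 ribosome biogenesis genes were also positive (median 0.34) and all 22 cholesterol synthesis genes (median 0.37), with none called in either. Under TPM these medians were 0.23 and 0.25, and that of the proliferation genes was 0.51. The share of all genes with a positive change is not given, so these counts cannot be read against it. Among D cyclins and Cdk inhibitors, Ccnd1 rose, Cdkn1c, which encodes the inhibitor p57, fell by 1.13 from 65.6 and 80.0 FPKM to 35.1 and 30.3 (-0.99 and not called against CT replicate 1 alone), and Ccnd2 had a change of 0.57. The list's median was 0.09, and that of 13 lipid genes was -0.08. Of 19 glycolysis and hypoxia genes 3 rose, with a median of 0.45, while 1 was called against CT replicate 1 alone and 3 against CT replicate 2 alone. Ndufa4l2, a hypoxia-induced mitochondrial protein, measured 4.33 and 4.85 FPKM in CT and 15.9 and 15.3 in -PD (1.57 ± 0.12). Gapdh was lower in CT replicate 2 than in CT replicate 1, at 16.4 and 36 FPKM, against 55.6 and 47.8 in -PD, and its change of 1.05 was 0.51, not called, against CT replicate 1 alone. Slc16a3, a lactate exporter, rose by 1.00 (0.81 against CT replicate 1 alone) and Scd1, of the lipid list, the stearoyl-CoA desaturase, by 1.12, from 23.7 and 20.0 FPKM to 47.5 and 49.1. The 13 mitochondrial-encoded genes had a median of 1.38, which was 0.26 against CT replicate 1 and 2.55 against CT replicate 2; 0 were called with both CT libraries, by limma, and 13 against CT replicate 2 alone.

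**Figure D5:**
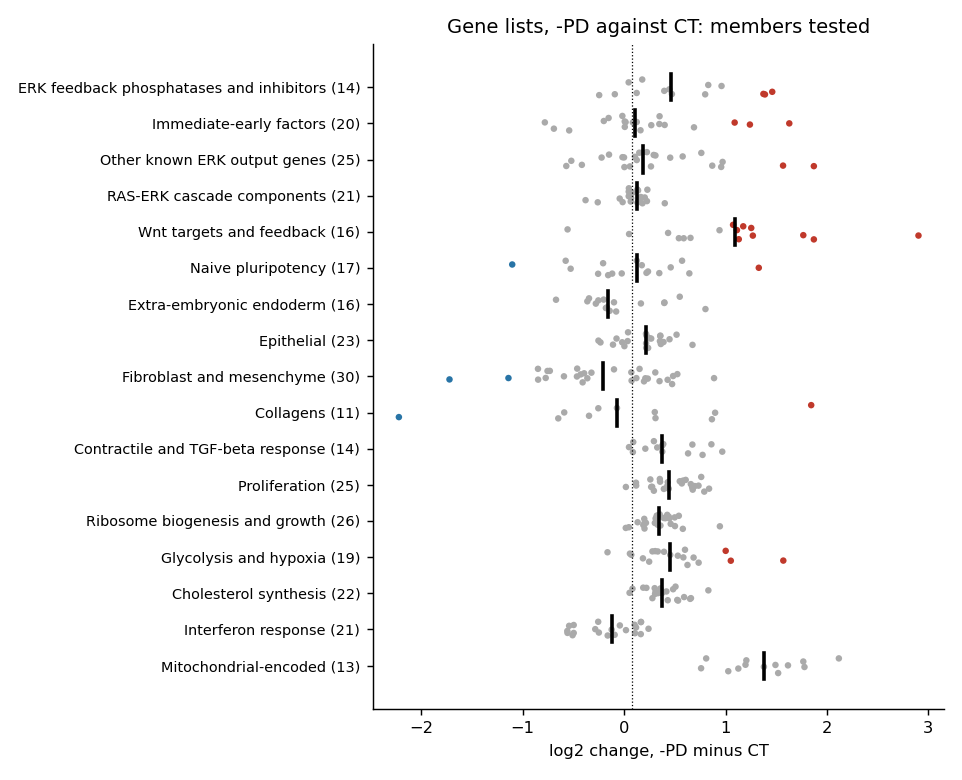
Log2 change, -PD minus CT (horizontal axis), of each tested member of 17 gene lists, with the number tested in brackets; red points were called higher, blue points lower, grey points did not pass, black bars are list medians and the dotted line is the median of all genes, 0.08. The Wnt list has the most called members, 9 of 16, and proliferation, ribosome and cholesterol genes lie to the right of 0 without reaching 2-fold.

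The same genes were then set against removal of another molecule, without the CT libraries. Against the mean of -CHIR, -VC and -WS, 104 genes were higher in -PD (0.783% of those tested) and 44 lower (0.331%), 1.11% together, with a median of 0.01 over all genes. The direct contrasts called 518 genes (3.9%) against -CHIR, 400 (3.01%) against -VC and 86 (0.647%) against -WS, and the contrasts of -CHIR and -VC with CT called 0.971% and 2.33%. Of the 104, 13 met the filter through the -PD libraries alone, Egr1 (1.60) and Dusp6 (1.31) among them, and their differences are a description. Other ERK genes called higher were Fos by 1.39, Spry1 by 1.23, Spred2 by 1.19, Ccnd1 by 1.59 and Emp1 by 2.03. Ccn1 was not called, at 0.87. Of the 20 immediate-early factors 2 were called higher, Egr1 included, and 1, Atf3, lower, with a median of 0.08. Of the feedback list 3 of 14 tested were called, Dusp6 included, with a median of 0.38. Against -WS alone, the group with the fewest calls, Egr1 was higher by 1.57 and Dusp6 by 1.06, while Fos at 0.66, Spry1 at 0.96 and Spred2 at 0.67 did not reach 2-fold.

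Wnt genes differed in which of the 3 removals they set apart from -PD. Of 16 tested, 6 were higher in -PD than in the mean of the other groups, Nkd2, Notum, Lgr5, Ccnd1, Sfrp1 and Bmp4, with a median of 0.81. That mean includes -CHIR, the group in which Nkd2, Notum and Axin2 were lowest. Axin2 was at 5.27 and 5.58 FPKM in -CHIR, 32 and 28.8 in -VC and 32.4 and 33.0 in -WS, beside 35.5 and 37.3 in -PD, so only the difference from -CHIR, 2.54, was called. Tcf7 stood at 11.6 and 10.6 FPKM in -WS and Sp5 at 9.36 and 9.55, and for each the difference of -PD from -WS, -0.29, was not called. The largest differences from the other groups were Igfbp1 (2.50), Col8a1 (2.31), Sfrp1 (2.28), Cxcl14 (2.28), Hsd11b1 (2.27), Ndufa4l2 (2.26), Cxcl5 (2.15), Nkd2 (2.1) and Emp1 (2.03). Egr1 and Dusp6 were called higher against all 3 removal groups singly, but they met the filter through -PD alone, so this is a description. Among the other named genes that rose against CT, Igfbp1, Igfbp2, Cxcl14, Col8a1, Sostdc1, Sfrp1, Ndufa4l2, Shisa2, P4ha3 and Scd1 were each called higher against all 3 singly. Scd1 illustrates the pattern, with 20.9 to 23.2 FPKM in the 6 other libraries and 47.5 and 49.1 in -PD. Il33, an alarmin cytokine, was at 18.6 and 16.5 FPKM in -PD against 0.987 to 9.48 in the other removal groups (1.89).

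The genes lower in -PD than in the other removal groups included Ccn3 (-2.01), Cd34 (-1.72), Tubb3 (-1.70), Zg16 (-1.65), St8sia2 (-1.59), Loxl1 (-1.58) and Tek (-1.51). Tubb3, a neuronal β-tubulin, was at 2.58 and 2.57 FPKM in -PD, 14.2 and 14.9 in -CHIR, 20.2 and 21.7 in -VC and 3.36 and 3.81 in -WS. Tubb3 is also 1 of the neural markers whose sum was lower in -PD. Plxdc1 (-1.39) was called against all 3 groups singly, at 1.88 and 1.48 FPKM in -PD and 4.54 to 8.29 in the other removal libraries. Atf3, a stress-induced AP-1 family member, was lower by 1.09, at 2.37 and 1.68 FPKM in -PD and 3.74 to 8.72 in the others. Eln, which fell against CT, had a difference of 0.39 (adjusted p from limma 0.0544), since the -VC libraries held 3.00 and 3.26 FPKM.

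The CF1 chemical arm, which shares no library with the removal experiment, gives the course of these genes in CF1 MEFs on days 0, 4, 8 and 12 and in iPSCs. Its table may have been normalized on its own, so levels set across tables carry no test. Dusp6 was at 55.9 and 54.2 FPKM on day 8 and at 0.0873 and 0.113 on day 12, the latter close to the CT libraries of the removal experiment. Egr1 was at 15.1 and 15.9 FPKM on day 8 and 0.241 and 0.197 on day 12, and Ccnd1 at 146 and 144 on day 8 and 4.59 and 4.63 on day 12. In each of the 3, the -PD libraries lay between the day 8 and day 12 levels of CF1 cells. Cd34 went the other way, from 43.5 and 45.1 FPKM on day 8 to 72.5 and 70.7 on day 12, as did Col14a1, from 1.91 and 1.68 to 47.8 and 51.0. Other called genes did not follow these courses. Pla2g2a, the largest named rise, went up in CF1 cells, from 6.59 and 6.31 FPKM on day 8 to 23.1 and 22.3 on day 12. Mest also went up, from 21.9 and 21.0 FPKM to 77.5 and 79.9. Ccn3, the largest named fall, went down, from 21.3 and 20.6 FPKM to 8.04 and 8.00.

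The called genes were also followed as groups in CF1 cells. The 100 genes that rose in -PD and were tested in both tables had a median change of -0.57 from day 8 to day 12, and the 56 that fell had 0.46, beside -0.06 over 12876 genes. From day 4 to day 8 the medians were -0.51 and 0.06, beside -0.11 over all genes, so the genes that rose in -PD were lower over that step too. Of the 100, from day 8 to day 12, 41 were at least 2-fold lower on day 12 and 9 at least 2-fold higher, and of the 56, 19 were at least 2-fold higher and 8 at least 2-fold lower. From day 12 to iPSCs the medians were -1.05 and -1.87, beside 0.03, so both groups were lower in iPSCs. These medians describe 2 libraries per time point and were not tested.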

How the data were processed

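The authors deposited FPKM values per gene, 1 column per library, and the 10 libraries of the removal table were used (the CF1 table for levels only). The tools named for the reads are, per the submitters' processing notes, StringTie 2.0, HISAT2 2.2.1 and fastp 0.20.1, on the build mm10, while annotation and strand setting are not given in those sources. FPKM holds no read counts, so no count model was run. Symbols and positions came from GENCODE M21, promoter windows from RefSeq (GRCm38.p6).

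limma 3.58.1 in R 4.3.3 (lmFit, contrasts.fit, eBayes with a trend) was fitted to log2(FPKM + 1) with a pseudocount of 1 and 1 coefficient per group, and checked on simulated data. Named genes are the 15 largest rises and falls of each contrast among called genes without overlap between groups, with a mean of at least 5 FPKM in the higher group and no predicted gene model, or members of 42 gene lists. The experiment, gene lists and alternatives were chosen with earlier results of these data known. Apcdd1, Igfbp2, Igfbp6, Enpp2 and the TCF/LEF promoter search were added after their values were seen. Replicate numbers did not pair the samples: the correlations of replicate deviations between groups were -0.058 to 0.055. Alternatives were other pseudocounts, scalings, filters, spread estimates and left-out libraries.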

Additional observations from a re-analysis of the deposited data

Results flagged for a closer look

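For 27 named genes, removal of PD and removal of another molecule gave called changes from CT in opposite directions, and the difference between the 2 removal groups, which uses no CT library, was itself called by limma (adjusted p of at most 8.17e-06). Of these, 22 stand against -CHIR and 5 against -VC, and none was found against -WS among the named genes. Named genes were chosen largely for the size of their change in -PD, and the same count over all genes tested is not given. Neither the 27 nor the absence against -WS can therefore be read as a share of the genes tested.

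Against -CHIR, 13 genes rose in -PD and fell in -CHIR. The -PD minus -CHIR difference on the log2 scale was 4.12 for Pla2g2a, 3.59 for Igfbp1, 3.37 for Cabp7, 3.30 for Notum, 3.09 for Ndufa4l2, 3.06 for Col8a1 and 3.04 for Tmem132c. It was 2.71 for Emp1, 2.68 for Shisa2, 2.64 for Igfbp2, 2.54 for Axin2, 2.43 for Tcf7 and 2.31 for Sp5. The Wnt genes among them, Notum, Axin2, Tcf7 and Sp5, were each lowest in the -CHIR libraries.

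In the other direction, 9 genes fell in -PD and rose in -CHIR. The difference was -4.45 for Ccn3, -4.11 for Pi16, -3.99 for Zg16, -3.42 for Spon2, -3.29 for Col14a1, -3.09 for Tek, -2.95 for Loxl1, -2.76 for Cd55 and -2.40 for Vnn1. Against -VC, 5 genes rose in -PD and fell in -VC, with a difference of 3.78 for Cxcl5, 3.36 for Sfrp1, 3.10 for Igfbp3, 3.06 for Mest and 2.92 for Ms4a4d.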

How the results depend on the processing

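A pseudocount of 0.1 in place of 1 gave 208 higher and 137 lower in -PD against CT, and 230 and 128 against the other removal groups. TPM gave 162 lower against CT, and 169 higher and 105 lower against the others. TPM without the mitochondrial genes gave 146 lower against CT, and 182 and 105 against the others. TPM together with leaving out CT replicate 2, chosen after seeing the data, gave 154 lower. Leaving out 1 library at a time gave 81 to 292 higher and 57 to 76 lower against CT, and 97 to 105 and 43 to 52 against the others; the 292 came without CT replicate 1, also when the genes of the full filter were kept. The causes were not tested.

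With the replicate number as a block, 105 genes were higher and 63 lower against CT, and 104 and 44 against the others. Among 60 named genes called against CT, 905 of 950 values under the alternatives kept direction and call, 45 lost the call and none changed sign. All 508 values of 30 named genes called against the others were kept. Among named genes that were not called, the change of Pou5f1 was -0.041 under TPM, that of Klf4 ranged from -0.58 to 0.0117 with 1 library left out (0.0117 without CT replicate 1), and that of Dppa5a from -0.18 to 0.14 (0.14 without CT replicate 2, 0.029 without -PD replicate 2), with 0.0826 under TPM without CT replicate 2. Depth limits the genes under 1 FPKM, among them the PEA3 factors and Spry4, which were not tested.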

Other observations

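Genes of retinoid handling held no called member among 14 tested (median 0.20 against CT). Crabp1, which binds retinoic acid, had a change of 0.89, Aldh1a2, which makes retinoic acid, of 0.80, and Cyp26a1, which degrades it, of -0.63. Of 16 senescence and p53 genes Igfbp3 alone was called (median 0.06), with Cdkn1a at -0.06 and Cdkn2a at -0.24. Of 20 BMP and TGF-beta genes Bmp4 and Inhba rose (median 0.21), with Bmp7 at -0.44 and the Id genes Id1 and Id3 at 0.37 and 0.36. Of 13 lipid genes Scd1 rose (median -0.08). None of 16 ATF4 stress response genes was called against CT (median 0.13).

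Some genes that rose were chosen here after their values were seen: the neurotrophin Ntf3 (1.16), the axon guidance ligand Sema3a (1.24), the angiopoietin Angpt1 (1.32), the Wnt ligand Wnt4 (1.14) and the secreted Wnt inhibitor Wif1 (1.20). Among genes that fell and were chosen the same way were Wnt10b (-1.21), Wnt16 (-1.05), Igfbp5 (-1.19), the hyaluronan synthase Has1 (-1.17) and the proteoglycans Aspn (-1.07) and Kera (-1.08).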
